A study of Mus musculus with 19 samples.

Results

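The genes described here build and steer the vesicles that carry new proteins from the endoplasmic reticulum (ER) to the Golgi apparatus and back. They were chosen by symbol from 8 families: the COPII coat (11 genes), the COPI coat (9), the TMED cargo receptors (10), the KDEL receptors (3), the SEC22 SNARE proteins (3), the YIPF proteins (7), the TVP23 proteins (2) and the golgins named Golga (6). Of 24421 genes listed in the mouse mammary libraries, 52 symbols matched, and the members are the 51 of them whose reads summed to 10 or more over the 19 libraries. Tmed6, with 14 reads in all and 0 to 2 in any library, lay just inside this minimum, and Tmed11, with 0 reads, lay outside it. In all, 18216 genes reached the same minimum.

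The libraries were made from mammary tissue of C57BL/6 mice (C57BL/6N in the study's methods) of 8 to 12 weeks at days 6 and 18 of pregnancy (p6 and p18), and compare wild-type tissue (WT) with tissue in which enhancers of the casein genes had been deleted by CRISPR/Cas9. There are 3 WT libraries of each day and 4 ΔSE libraries of each day. ΔSE is labelled Enhancer-delS1-4 and stands for mice without the super-enhancer of the casein locus, although the label itself does not name the deleted interval. The other mutants are delCsn1s2b-E, which lacks an enhancer of Csn1s2b (3 libraries), and delCsn3-PE, which lacks the proximal enhancer of Csn3 (2 libraries). Both are labelled p18, but their extraction notes name WT tissue in lactation, so that their stage is uncertain.

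Secretory proteins enter the ER, fold there and leave it in vesicles coated with COPII, in which the SEC23 and SEC24 proteins select cargo and the SEC13 and SEC31 proteins form the outer cage. COPI coats carry receptors and escaped ER residents back, TMED and KDEL receptors bind the cargo, SNARE proteins fuse the vesicles, and golgins tether vesicles to the Golgi. In the mammary gland, alveolar cells differentiate through pregnancy and go on to secrete caseins and other milk proteins through this route in large amounts.

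Reads in genes came to 12335272 to 20525175 per library in WT and ΔSE, of which the ribosomal RNA precursor Rn45s took 21.7 to 42.9%. They came to 26848053 to 30329601 in the lines delCsn1s2b-E and delCsn3-PE, where Rn45s took 0.0765 to 0.924%. Without Rn45s, the members took 0.278 to 0.376% of the reads in WT at p6, 0.426 to 0.467% in WT at p18, 0.337 to 0.387% in ΔSE at p6 and 0.382 to 0.419% in ΔSE at p18. Milk protein genes took 11.6 to 14.9% of these reads in WT at p18 and 5.66 to 9.22% in ΔSE at p18, against 0.740% or less in every p6 library. Csn3, a casein gene of the altered locus, was lower in ΔSE than in WT at p18 by a log2 fold change of -6.00 ± 0.88 (SE, adjusted p = 0.0099). It was the 1 called of 8 milk protein genes. Csn1s2b, which the study reports as reduced at p18 without the super-enhancer, was not called. The tissue is bulk, so that more cells of a type and more RNA per cell cannot be told apart. Some libraries stood apart in the cells they held. WT p6 replicate 1 had a summed level of 8 fibroblast markers of 1242 CPM (the normalized read count explained below), against 10898 and 4513 in replicates 2 and 3. WT p18 replicate 1 had 4.48 CPM of 10 skeletal muscle markers, against 1113 and 1659 in the others.

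Levels are given as normalized CPM, read counts set to a common library size after scaling with edgeR's trimmed mean of M values (TMM), which sets the typical gene to no change. A gene is called higher or lower where edgeR's quasi-likelihood test gave a Benjamini-Hochberg adjusted p under 0.05 over all genes tested, with no minimum fold change. Milk protein mRNA takes up part of each p18 library, and the direction of many members depended on the scaling. Library totals also include Rn45s, which took 21.7 to 36.3% of the reads in ΔSE at p6 and 35.7 to 42.9% at p18. Scaled by library totals in place of TMM, the median of all 17844 genes moved from -0.05 to -0.42 between p6 and p18 in WT and from -0.07 to -0.65 in ΔSE (log2). Changes below are therefore changes relative to the other genes, and the ratios of paralogs given further on do not depend on any scaling.

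In WT tissue most of these genes rose between p6 and p18. Of the 51 members, 37 were called higher and 1 lower, while 17.2% of all genes tested were called higher and 12.4% lower. The median log2 fold change of the members was 0.77, against -0.05 over all genes. In ΔSE tissue 29 members were called higher and 4 lower, with 17.3% of all genes higher and 18.3% lower, and the median was 0.43, against -0.07 over all genes. Scaled by library totals, 18 members were higher and 5 lower in WT (median 0.38). In ΔSE 1 was higher and 11 lower, and the median turned to -0.16. Scaled by totals without Rn45s and milk protein genes, 30 were higher and 4 lower in WT (median 0.55). In ΔSE 7 were higher and 7 lower, with a median of 0.15 and 34 members above 0. Of the 17 called members that turned below 0 in ΔSE under library totals, 0 did so under these totals. The distance of the members' median from that of all genes stayed at 0.82 with TMM and 0.80 with library totals in WT, and at 0.50 and 0.49 in ΔSE. With 1 factor of unwanted variation removed, edgeR called 0 members in either genotype, but this factor was above 0 in every p6 library and below 0 in every p18 library, so that it cannot be told apart from the day. In that fit 7 of all 17844 genes were called in WT and 0 in ΔSE, and the members' medians were 0.72 and 0.26. With muscle marker content as a covariate 37 members were called higher and 1 lower in WT, and 20 and 1 in ΔSE. Of all 17844 genes, 1955 were called higher and 1756 lower in ΔSE in that fit. Without WT p6 replicate 1 the counts in WT were 37 higher and 1 lower, and without WT p18 replicate 1 they were 36 and 1. In all, 27 members were called higher in both genotypes, and 10 were called higher in WT and not called in ΔSE. The shares of all genes with these patterns were not counted.

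**Figure D1:**
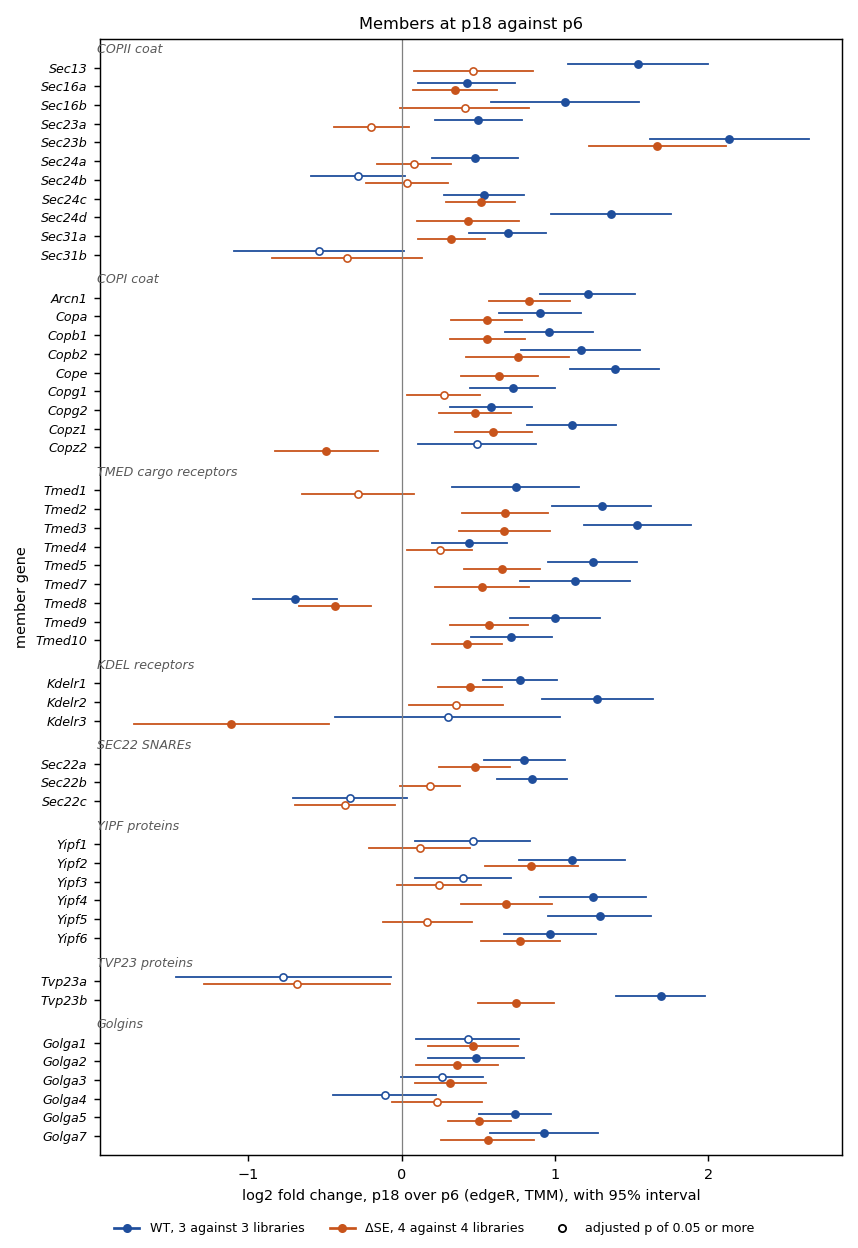
Log2 fold change at p18 over p6 (x axis, edgeR with TMM scaling, 95% interval as bars) of 49 members grouped by family, in WT (blue, 3 against 3 libraries) and ΔSE (orange, 4 against 4); filled points have an adjusted p under 0.05, and the scarcely detected Yipf7 and Tmed6 are left out. Most points lie to the right of 0 in both genotypes, and Tmed8 lies to the left in both. Under scaling by library totals 17 of the members called higher in ΔSE fall below 0. Under totals without Rn45s and milk protein genes 0 of these 17 do.

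The COPII coat, which buds vesicles from the ER, had 9 of 11 genes called higher in WT and none lower, with a median of 0.54. In ΔSE, 5 were called higher and none lower (median 0.35), and 4 of these 5 turned below 0 under library totals, the exception being Sec23b. Sec23b encodes a GTPase-activating subunit of the inner coat and had the largest change of the coat genes in both genotypes. Its level was 24.1, 27.3 and 31.3 CPM in WT at p6 and 139.9, 138 and 86.3 CPM in WT at p18. In ΔSE it was 31.5, 21.3, 21.2 and 24.9 CPM at p6 and 97.4, 99.6, 56.9 and 60.9 CPM at p18. Every p18 library lay above every p6 library. The log2 fold changes were 2.14 ± 0.24 (SE, adjusted p = 1.4e-05) in WT and 1.67 ± 0.21 (adjusted p = 2.2e-05) in ΔSE. Under library totals they were 1.73 and 1.03, and Sec23b was the 1 member still called higher in ΔSE.

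Its paralog Sec23a, the other SEC23 subunit, moved far less. Sec23a was at 25.5, 36.6 and 32.0 CPM in WT at p6 and at 45.2, 40.6 and 47.4 CPM in WT at p18 (log2 fold change 0.50 ± 0.13, adjusted p = 0.010). The ΔSE libraries held 42.7, 47.8, 46.3 and 52.4 CPM at p6 and 41.3, 38.2, 43.2 and 42.5 CPM at p18 (-0.20 ± 0.12, adjusted p = 0.20). The groups were apart in WT and overlapped in ΔSE. The GENCODE annotation of GRCm38 (mm10) places Sec23b on the plus strand of chromosome 2 (chr2:144556229-144590749) and Sec23a on the minus strand of chromosome 12 (chr12:58958383-59012017).

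The DNA before each of these genes is printed because the pair changed order between the days, Sec23a giving more reads at p6 and Sec23b at p18. Tvp23a and Tvp23b, whose ratio changed more, were not searched. The sequences are RefSeq promoters of GRCm38.p6, 250 bases before the annotated start and 5′ to 3′ on the gene's strand. Capitals mark the motif TTCNNNGAA, the sequence bound by STAT5, the factor that prolactin activates in the mammary gland. Sec23a has no match to it and is in lower case throughout.
Sec23a, chr12:59012018-59012267, minus strand: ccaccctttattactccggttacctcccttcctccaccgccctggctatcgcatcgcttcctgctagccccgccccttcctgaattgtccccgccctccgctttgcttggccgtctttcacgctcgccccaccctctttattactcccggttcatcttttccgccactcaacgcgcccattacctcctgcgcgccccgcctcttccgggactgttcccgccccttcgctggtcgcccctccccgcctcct
Sec23b, chr2:144555979-144556228, plus strand: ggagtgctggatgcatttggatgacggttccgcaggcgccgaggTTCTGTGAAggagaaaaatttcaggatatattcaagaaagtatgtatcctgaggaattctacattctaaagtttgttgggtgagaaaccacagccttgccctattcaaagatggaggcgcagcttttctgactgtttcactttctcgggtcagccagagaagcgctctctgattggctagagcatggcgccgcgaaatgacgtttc
The match in Sec23b begins 206 bases before the start. Such a match was in 4 of the 41 members with a promoter in the table (9.76%) and in 9.55% of all 27025 genes there.

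Another short motif is given without a test. TGACGTGG, known as the unfolded protein response element (UPRE) and bound by XBP1 and ATF6, was searched on both strands from 250 bases before to 50 after the start. It was in 6 of 41 members (14.6%), against 0.714% of all 27025 genes and 0.823% of 17492 protein-coding genes. Read on the other strand the motif is CCACGTCA, which holds CCACG, the core of the ER stress element. CCACG alone was in 31 of 41 members (75.6%), against 35.5% of all genes and 40.4% of protein-coding genes, and every UPRE match is also a match to it. The full ER stress elements, CCAAT and CCACG set 9 bases apart or ATTGG and CCACG set 1 base apart, were in 0 of 41 members and in 0.137% and 0.0444% of all genes. The cyclic AMP response element TGACGTCA was in 1 member, Cope (2.44%), and in 2.03% of all genes. These matches are letters in a window and were not tested for binding. The 6 matches are shown with 30 bases each, the capitals marking the motif in either orientation.
Sec16b, chr1:157506741-157506770, plus strand: ttctgtgtggcTGACGTGGcacggcagttt
Sec24d, chr3:123267459-123267488, plus strand: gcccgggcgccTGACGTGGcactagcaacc
Copb1, chr7:114254690-114254719, minus strand: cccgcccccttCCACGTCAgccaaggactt
Copb2, chr9:98563713-98563742, plus strand: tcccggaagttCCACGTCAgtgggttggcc
Sec23a, chr12:59011993-59012022, minus strand: ctcctccccttTGACGTGGcagaggcggca
Kdelr3, chr15:79516367-79516396, plus strand: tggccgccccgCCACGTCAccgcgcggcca
Of these 6 genes, Sec16b, Sec24d, Copb1, Copb2 and Sec23a were called higher in WT at p18 and Kdelr3 was not, where 37 of all 51 members were called higher. In ΔSE, Sec24d, Copb1 and Copb2 were called higher, Sec16b and Sec23a were not called, and Kdelr3 was called lower. Arcn1, Golga4, Golga7, Kdelr2, Tmed2, Tmed7, Tvp23a, Tvp23b, Yipf5 and Yipf7 were not searched.

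Among the other COPII genes, Sec24d, a cargo-selecting subunit, was at 22.8, 36.6 and 30.9 CPM in WT at p6 and at 87.2, 84.9 and 61.1 CPM at p18. The ΔSE values were 47.2, 42.2, 41.5 and 43.9 CPM at p6 and 69.1, 66.4, 50.7 and 49.8 CPM at p18. The days did not overlap in either genotype, and the p18 values were lower in ΔSE for 2 of its 4 libraries than for any in WT. The log2 fold changes were 1.36 ± 0.18 (adjusted p = 6.2e-05) in WT and 0.43 ± 0.16 (adjusted p = 0.042) in ΔSE, the second turning to -0.18 under library totals. Sec13, which forms the outer cage and is also part of the nuclear pore, rose in WT from 22.998, 38.0 and 34.0 CPM to 107, 88.3 and 82.3 CPM (1.54 ± 0.22, adjusted p = 8.3e-05). In ΔSE it went from 45.1, 35.6, 31.9 and 57.4 CPM to 61.9, 58.2, 49.2 and 66.3 CPM, with groups that overlapped (0.47 ± 0.18, adjusted p = 0.057). Sec31a, the other cage protein, changed by 0.69 in WT and 0.32 in ΔSE (adjusted p = 0.00043 and 0.021), and Sec24c, a cargo subunit, by 0.54 and 0.52 (adjusted p = 0.0037 and 0.0014). Under library totals both turned in ΔSE, to -0.28 and -0.08. Sec24a had 0.48 in WT (adjusted p = 0.012) and 0.08 in ΔSE, and Sec16b, of the scaffold of ER exit sites, 1.07 (adjusted p = 0.0022) and 0.41 (adjusted p = 0.12). Its relative Sec16a had 0.43 and 0.35 (adjusted p = 0.041 and 0.045), the latter -0.26 under library totals. Sec24b and Sec31b were called in neither genotype.

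The COPI coat, which carries cargo from the Golgi back to the ER and between Golgi cisternae, had 8 of 9 genes called higher in WT and none lower (median 0.96). In ΔSE, 7 were called higher and 1 lower (median 0.56), and 4 of the 7 (Copa, Copb1, Copg2 and Copz1) turned below 0 under library totals. Cope, the ε-subunit, was at 20.05, 23.3 and 25.0 CPM in WT at p6 and at 60.0, 63.0 and 56.4 CPM at p18 (1.39 ± 0.14, adjusted p = 4.6e-06). In ΔSE it was at 28.8, 23.6, 23.3 and 25.6 CPM at p6 and at 46.7, 38.8, 34.5 and 37.7 CPM at p18 (0.64 ± 0.12, adjusted p = 0.00062). All p18 libraries lay above all p6 libraries, and at p18 all ΔSE libraries lay below all WT libraries. Arcn1, the δ-subunit, rose by 1.21 ± 0.15 in WT and 0.83 ± 0.13 in ΔSE, from 87.3, 108 and 112 CPM to 239, 265 and 209.7 CPM in WT and from 119.9, 102, 99.5 and 117 CPM to 218, 206, 165 and 193 CPM in ΔSE (adjusted p = 2.3e-05 and 0.00012). Copb2, the β'-subunit, rose by 1.17 ± 0.18 in WT and by 0.76 ± 0.16 in ΔSE. Copa, the α-subunit, had 0.90 ± 0.13 and 0.55 ± 0.11.

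The paralogs of the ζ-subunit parted. Copz1 was at 30.4, 34.9 and 26.1 CPM in WT at p6 and at 68.8, 64.3 and 63.7 CPM at p18 (1.11 ± 0.14, adjusted p = 3.0e-05). The ΔSE libraries held 39.5, 41.2, 32.6 and 32.9 CPM at p6 and 58.8, 53.5, 49.4 and 59.9 CPM at p18 (0.60 ± 0.12, adjusted p = 0.00099; under library totals -0.0044). Copz2 was at 9.08, 12.2 and 9.64 CPM in WT at p6 and at 14.7, 13.1 and 15.8 CPM at p18, which was not called (0.49 ± 0.18, adjusted p = 0.053). The ΔSE values were 13.4, 13.8, 14.99 and 21.8 CPM at p6 and 11.9, 10.6, 11.1 and 11.96 CPM at p18, a fall that was called (-0.49 ± 0.16, adjusted p = 0.024). So Copz1 was apart between the days in both genotypes, with p18 above, and Copz2 was apart in both with p18 above in WT and below in ΔSE. The γ-subunit pair did not part in this way. Copg2 had 0.58 ± 0.13 in WT and 0.48 ± 0.11 in ΔSE (adjusted p = 0.0027 and 0.0031), and Copg1 had 0.73 ± 0.13 (adjusted p = 0.00066) and 0.27 ± 0.11 (adjusted p = 0.070).

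The TMED proteins, which bind cargo and cycle in vesicles of both coats, gave 8 of 10 genes called higher in WT, with a median of 1.07, and 1 called lower. In ΔSE, 6 were called higher and 1 lower (median 0.55), of which Tmed7, Tmed9 and Tmed10 turned below 0 under library totals. Tmed3 was at 24.7, 41.4 and 35.7 CPM in WT at p6 and at 99.5, 102 and 94.8 CPM at p18 (1.54 ± 0.16, adjusted p = 8.5e-06). In ΔSE it was at 42.8, 34.0, 36.8 and 43.3 CPM at p6 and at 64.9, 68.5, 54.9 and 61.7 CPM at p18 (0.67 ± 0.14, adjusted p = 0.0015). The p6 values of the genotypes overlapped, and at p18 the ΔSE libraries all lay below the WT libraries. Tmed2 followed with 25.0, 34.9 and 35.4 CPM against 86.0, 74.04 and 75.8 CPM in WT (1.30 ± 0.15, adjusted p = 1.9e-05), and with 38.0, 31.1, 26.5 and 36.3 CPM against 51.8, 54.2, 50.04 and 54.8 CPM in ΔSE (0.68 ± 0.13, adjusted p = 0.00095). Tmed5, Tmed7 and Tmed9 rose in WT by 1.25, 1.13 and 1.00, and Tmed10, the partner of Tmed2 in the same complexes, by 0.71.

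Tmed8 was the member called lower in both genotypes. It was at 28.3, 30.2 and 25.3 CPM in WT at p6 and at 19.6, 15.9 and 16.4 CPM at p18 (-0.69 ± 0.13, adjusted p = 0.00081). The ΔSE libraries held 26.0, 31.1, 28.6 and 28.7 CPM at p6 and 19.2, 20.4, 21.4 and 23.8 CPM at p18 (-0.43 ± 0.11, adjusted p = 0.0065). Neither pair of groups overlapped. Tmed1 rose in WT from 4.92, 8.65 and 8.99 CPM to 11.8, 11.8 and 14.4 CPM (0.74 ± 0.20, adjusted p = 0.0093). In ΔSE it stood at 10.3, 8.60, 10.3 and 11.3 CPM at p6 and at 7.55, 8.62, 8.55 and 8.46 CPM at p18 (-0.28 ± 0.17, adjusted p = 0.22). Tmed1 shares 207 bases of exon with Dnm2 on the opposite strand.

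The KDEL receptors return ER chaperones that have escaped to the Golgi. Kdelr2 was at 24.4, 41.7 and 42.2 CPM in WT at p6 and at 90.0, 96.6 and 76.7 CPM at p18 (1.28 ± 0.17, adjusted p = 5.4e-05). The ΔSE values were 53.6, 52.9, 54.9 and 49.0 CPM at p6 and 71.9, 66.7, 60.9 and 69.2 CPM at p18 (0.35 ± 0.15, adjusted p = 0.069). The p6 libraries of ΔSE lay above those of WT, and each p18 library lay above its own p6 group. Kdelr1 was at 29.8, 35.9 and 35.9 CPM against 51.9, 63.3 and 58.5 CPM in WT (0.77 ± 0.11, adjusted p = 0.00013), and at 37.3, 40.3, 36.7 and 40.04 CPM against 53.3, 52.4, 52.2 and 52.1 CPM in ΔSE (0.44 ± 0.10, adjusted p = 0.0023; -0.15 under library totals).

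Kdelr3 went the other way in ΔSE. It was at 9.15, 11.5, 10.04 and 12.6 CPM at p6 and at 4.24, 4.40, 6.75 and 4.56 CPM at p18, without overlap (-1.11 ± 0.30, adjusted p = 0.0086). In WT it was at 1.97, 8.16 and 3.78 CPM at p6 and at 6.34, 5.70 and 5.37 CPM at p18, where the p6 libraries spanned the p18 libraries (0.30 ± 0.35, adjusted p = 0.55). The order of the WT p6 libraries in Kdelr3 was that of their fibroblast markers, lowest in replicate 1 and highest in replicate 2. Sec24d, Sec13, Tmed3 and Sec23a had the same order, which was thus not particular to Kdelr3. The summed fibroblast markers were 11758 to 14638 CPM in ΔSE at p6 and 3779 to 7070 CPM in ΔSE at p18, and 7 of these 8 markers were called lower there. Their part in the value of Kdelr3 was not tested.

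Of the SEC22 proteins, SNAREs of traffic between the ER and Golgi, Sec22b was at 20.2, 23.2 and 22.1 CPM in WT at p6 and at 41.2, 40.6 and 36.7 CPM at p18 (0.85 ± 0.11, adjusted p = 3.6e-05). In ΔSE it was at 25.4, 25.6, 26.7 and 27.1 CPM at p6 and at 31.4, 30.4, 27.9 and 29.5 CPM at p18, apart but not called (0.19 ± 0.09, adjusted p = 0.14). The ΔSE libraries lay above WT at p6 and below WT at p18. Sec22a rose by 0.80 ± 0.13 in WT and by 0.48 ± 0.11 in ΔSE (-0.11 under library totals), while Sec22c was not called in either (-0.34 and -0.37), although its p18 libraries lay below its p6 libraries in both. Sec22c was at 8.32, 8.85 and 7.38 CPM against 6.75, 6.32 and 6.36 CPM in WT, and at 7.41, 8.60, 8.14 and 8.11 CPM against 5.71, 7.09, 4.94 and 7.27 CPM in ΔSE.

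The YIPF and TVP23 proteins are membrane proteins of the Golgi and early secretory pathway, several of them partners of RAB proteins. Of the 7 YIPF genes, 4 were called higher in WT (median 0.97) and 3 in ΔSE, Yipf2, Yipf4 and Yipf6, which stayed above 0 under library totals. The family's median in ΔSE was 0.24. Yipf5 was called higher at p18 in WT and was not called in ΔSE. It was at 13.7, 18.7 and 19.1 CPM in WT at p6 and at 51.0, 40.6 and 35.0 CPM at p18 (1.29 ± 0.16, adjusted p = 2.8e-05). The ΔSE libraries held 20.2, 22.1, 23.7 and 21.4 CPM at p6 and 22.2, 27.1, 22.8 and 26.0 CPM at p18, with overlap (0.17 ± 0.14, adjusted p = 0.37). Tvp23b, a Golgi protein on chromosome 11 (chr11:62879455-62916780, plus strand), was at 14.98, 17.0 and 19.2 CPM in WT at p6 and at 57.8, 58.6 and 49.3 CPM at p18, a 3.23-fold rise and the smallest adjusted p of the members in WT (1.69 ± 0.14, adjusted p = 8.0e-07). The ΔSE values were 16.9, 19.3, 17.3 and 21.6 CPM at p6 and 31.3, 34.7, 29.1 and 31.1 CPM at p18 (0.75 ± 0.12, adjusted p = 0.00016). The days were apart in both genotypes, and at p18 the ΔSE values lay below every WT value. Tvp23a was scarce, at 1.19 to 4.04 CPM in all 14 libraries, and was not called in either (-0.77, adjusted p = 0.091, and -0.68, adjusted p = 0.074). It shares 1341 bases of exon with Nubp1 on the opposite strand.

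Yipf7, which is known from skeletal muscle, was called lower in ΔSE at p18, and the call rested on few reads. It was at 0, 2.56, 0 and 0.292 CPM at p6 and at 0 in all 4 libraries at p18. Set against 3 counts over the p18 group, the p6 mean of 0.713 CPM was at least 12.4-fold higher, and without ΔSE p6 replicate 2 this ratio was 1.69. The sums of the muscle markers in the ΔSE p6 libraries were 58.0, 2798, 133 and 4023 CPM, and 7.67 to 17.0 CPM at p18. With muscle content as a covariate the value of Yipf7 turned from -6.60 to 0.84.

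The golgins hold vesicles at the Golgi by long coiled coils. In WT, 3 of 6 were called higher (median 0.46) and in ΔSE 5 (median 0.41), but in ΔSE Golga1, Golga3, Golga5 and Golga7 turned below 0 under library totals. Golga7, which works with a palmitoyltransferase rather than as a tether, was at 14.1, 13.3 and 15.2 CPM in WT at p6 and at 24.1, 31.2 and 25.8 CPM at p18 (0.93 ± 0.17, adjusted p = 0.00058). In ΔSE it was at 16.1, 16.4, 12.02 and 19.3 CPM at p6 and at 23.5, 22.3, 20.98 and 27.6 CPM at p18 (0.56 ± 0.14, adjusted p = 0.0061). The days did not overlap in either genotype. Golga5 had 0.74 ± 0.11 in WT and 0.51 ± 0.10 in ΔSE (adjusted p = 0.00016 and 0.00078), and Golga2, the cis-Golgi tether GM130, 0.49 and 0.36 (adjusted p = 0.020 and 0.036). Golga1 and Golga3 had 0.43 and 0.26 in WT (adjusted p = 0.052 and 0.13), and 0.46 and 0.32 in ΔSE (adjusted p = 0.016 and 0.034). Golga4 was called in neither.

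**Figure D2:**
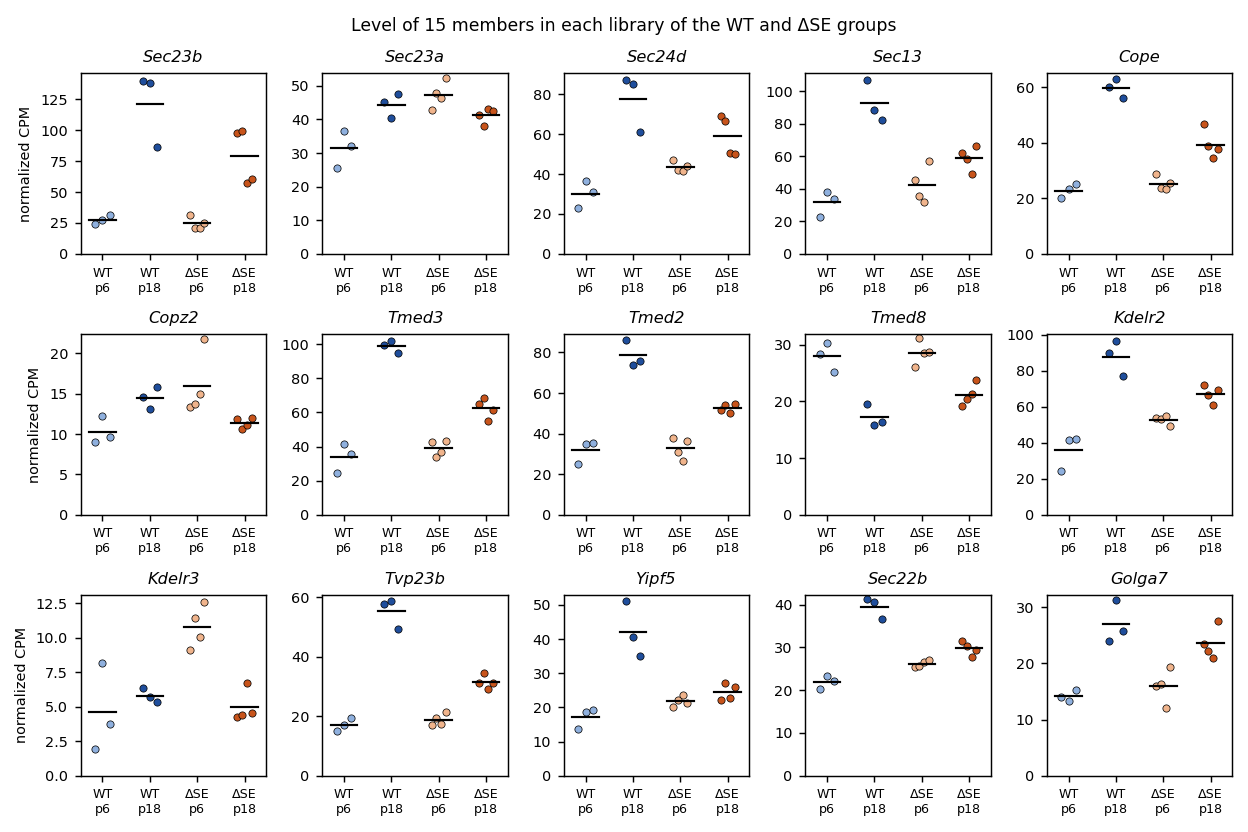
Level in normalized CPM (y axis, TMM scaling) of 15 members in each library, with WT in blue and ΔSE in orange, p6 in pale and p18 in dark tones; points are libraries and bars are group means. Sec23b and Tvp23b at p18 lie above p6 in both genotypes, the p18 points of Tvp23b, Yipf5, Cope and Tmed3 are lower in ΔSE than in WT, and Tmed8 lies lower at p18 in both.

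Paralogs were also set against each other within each library, which removes any scaling between libraries. Of 11 pairs, 5 changed between p6 and p18 (exact two-sided permutation test within genotypes, 1400 relabelings, adjusted p = 0.0031 each). Before adjustment each had p = 0.0014, the smallest this exact permutation test can give. All 5 ratios fell as written, a direction that depends on which paralog was put first. The Sec23a/Sec23b ratio of reads was 1.06, 1.34 and 1.02 in WT at p6 and 0.323, 0.294 and 0.550 at p18. For ΔSE it was 1.36, 2.24, 2.19 and 2.10 at p6 and 0.424, 0.384, 0.758 and 0.698 at p18. More reads came from Sec23a than from Sec23b in every p6 library, and fewer in every p18 library. The mean change was -1.72 on the log2 scale, -1.60 in WT and -1.84 in ΔSE.

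The Tvp23a/Tvp23b ratio fell by 1.97, from 0.189, 0.180 and 0.154 to 0.0395, 0.0208 and 0.0354 in WT and from 0.197, 0.211, 0.134 and 0.177 to 0.0661, 0.0686, 0.0976 and 0.0414 in ΔSE. The Kdelr3/Kdelr2 ratio fell by 1.12, from 0.0822, 0.196 and 0.0900 to 0.0708, 0.0592 and 0.0703 in WT and from 0.171, 0.217, 0.183 and 0.257 to 0.0595, 0.0666, 0.111 and 0.0663 in ΔSE. In both pairs no p18 library reached a p6 library of its genotype. The Copz2/Copz1 ratio fell by 0.84, from 0.299, 0.351 and 0.370 to 0.213, 0.204 and 0.249 in WT and from 0.339, 0.335, 0.460 and 0.662 to 0.203, 0.199, 0.225 and 0.2002 in ΔSE. The Sec31b/Sec31a ratio fell by 0.95, from 0.129, 0.0608 and 0.0710 to 0.0353, 0.0352 and 0.0368 in WT and from 0.0606, 0.0902, 0.0575 and 0.0566 to 0.0453, 0.0252, 0.0448 and 0.0515 in ΔSE. These too were apart in each genotype.

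For the remaining 6 pairs the same exact permutation test gave adjusted p of 0.076 or more. The changes were 0.40 for Sec24a/Sec24b (adjusted p = 0.076), 0.38 for Sec24d/Sec24c and 0.37 for Sec16b/Sec16a (adjusted p = 0.15 each, same exact test). They were 0.23 for Kdelr2/Kdelr1, 0.12 for Sec22a/Sec22b and 0.03 for Copg2/Copg1 (adjusted p = 0.21, 0.25 and 0.82, same exact test). Kdelr2 enters 2 pairs, which are not independent. The test over both genotypes is needed for these calls, since WT alone, with 3 libraries against 3, cannot go below an exact p of 0.10.

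**Figure D3:**
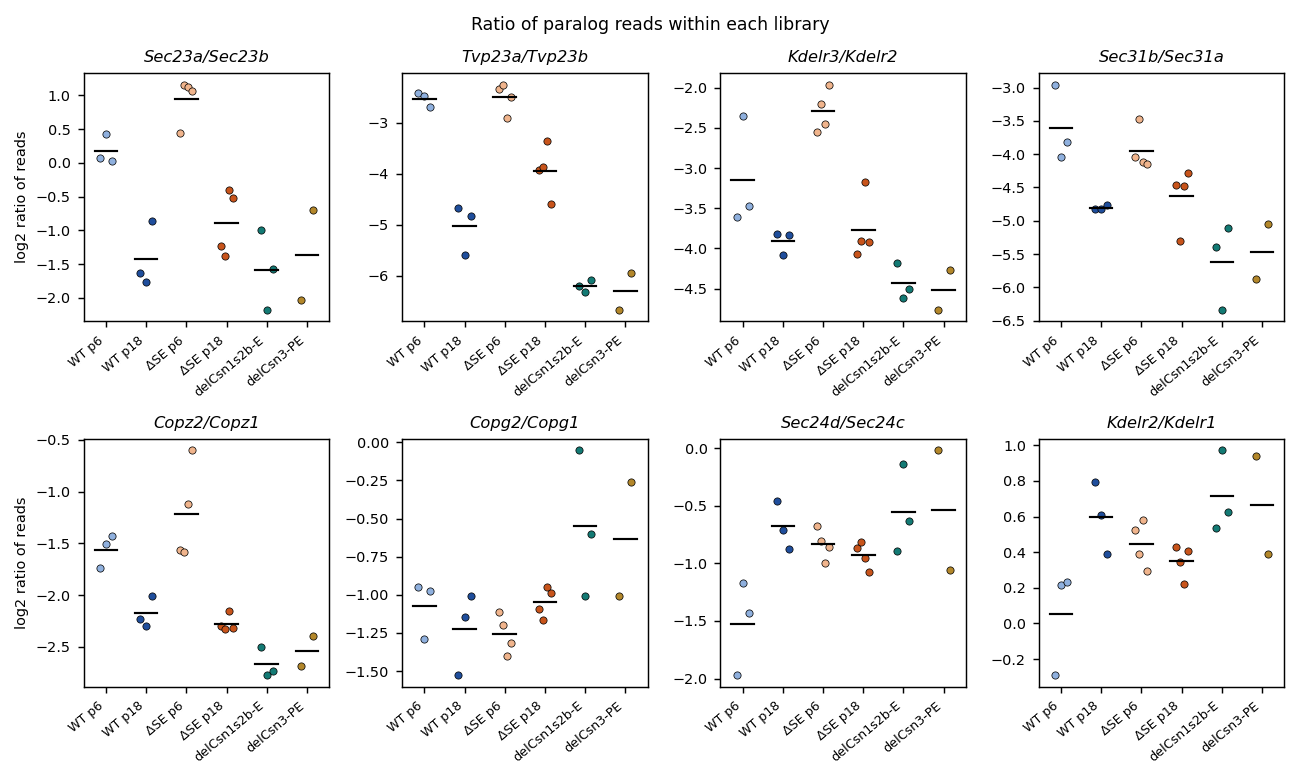
Log2 ratio of the reads of paralogs within each library (y axis) for 8 of the 11 pairs, by group (x axis); points are libraries and bars are group means. The first 5 panels are the pairs that changed, whose p18 points lie below the p6 points in both WT and ΔSE; Copg2/Copg1, Sec24d/Sec24c and Kdelr2/Kdelr1 did not pass the test.

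Levels were also divided by the joined length of all annotated exons of a gene, which can exceed the length of its mRNA. Per kilobase of this length, Sec23b made up 40.5 ± 3.5% (SD, n = 3) of the SEC23 level in WT at p6 and 67.0 ± 7.6% (n = 3) at p18. In ΔSE the share was 28.6 ± 5.1% (n = 4) and 58.5 ± 8.3% (n = 4). Sec24d made up 16.3 ± 3.9% of the SEC24 level in WT at p6 and 28.6 ± 3.0% at p18, and 23.8 ± 2.0% and 25.0 ± 1.9% in ΔSE. Kdelr3 made up 13.4 ± 1.7% of the KDEL receptor level in ΔSE at p6 and 5.20 ± 1.4% at p18, and Tmed8 went from 5 to 1.501% of the TMED level in WT and from 4.69 to 2.51% in ΔSE. Shares of a sum do not depend on scaling between libraries, but they do depend on the exon lengths. By this measure the highest member in WT at p18 was Kdelr2, at 48 ± 5.54 CPM per kilobase (SD, n = 3). It was ahead of Tmed3, Copa, Tmed2, Kdelr1 and Copb2, at 34.7, 33.5, 31.1, 30.9 and 29.7 CPM per kilobase, which are close to one another. The order rests on the lengths used, 1829 bases for Kdelr2 and 14915 for Arcn1, whose CPM was higher than that of Kdelr2. It is not a ranking of mRNA molecules.

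At p18, most members had lower values in ΔSE than in WT, with 5 of 51 above 0, but few were called. The share above 0 was not counted over all genes. Tvp23b and Yipf5 were called lower in ΔSE and none higher, with 0.213% of all genes called lower. Tvp23b was lower by a log2 fold change of -0.81 ± 0.12 (95% interval -1.07 to -0.55, adjusted p = 0.011) and Yipf5 by -0.78 ± 0.15 (-1.09 to -0.47, adjusted p = 0.035). Over 16 alternatives the value stayed between -0.88 and -0.76 for Tvp23b (adjusted p 1.5e-06 to 0.098) and between -0.90 and -0.62 for Yipf5 (adjusted p 0.00049 to 0.15). The call of Tvp23b was lost in 5 of the 16, among them without WT p18 replicate 1, WT p18 replicate 2 or ΔSE p18 replicate 3. The call of Yipf5 was lost in 9, among them when any p18 library other than WT replicate 3 was left out. With Tvp23b and Yipf5 included, 19 members had all ΔSE libraries under all WT libraries and 0 had them above, against 9.8% of all genes under, and 21 were lower at an unadjusted p under 0.05, against 8.44% of all genes. Of the TMED genes 7 of 10 were apart in this way, of the COPI genes 4 of 9, of the SEC22 genes 2 of 3 and of the COPII genes 2 of 11. The members' median was -0.25, against -0.04 over all genes. Among the uncalled were Tmed3 (-0.66 ± 0.15, adjusted p = 0.070), Cope (-0.60 ± 0.12, adjusted p = 0.052), Tmed2 (-0.58, adjusted p = 0.088), Sec13 (-0.65, adjusted p = 0.15) and Sec23b (-0.63 ± 0.22, adjusted p = 0.22).

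The composition of the libraries also differed between these groups. The summed luminal epithelial markers were 1267 to 1947 CPM in WT at p18 and 1926 to 2060 CPM in ΔSE at p18, with 0 of 10 markers called in either direction. The muscle markers were 4.48 to 1659 CPM in WT and 7.67 to 17.0 CPM in ΔSE. In Tvp23b and Yipf5 every WT p18 library lay above every ΔSE p18 library. WT p18 replicate 1, nearly free of muscle mRNA, was among them, with 57.8 CPM of Tvp23b and 51.0 CPM of Yipf5. Both calls were lost when this 1 library was left out. With muscle content as a covariate Tvp23b was at -0.76 (adjusted p = 0.054) and Yipf5 at -0.89 (adjusted p = 0.046). The part of epithelial content was not tested.

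At p6 the comparison of ΔSE with WT called 1 member, Sec23a, which was higher in ΔSE (0.59 ± 0.13, adjusted p = 0.041), with 0.499% of all genes called higher. Its ΔSE libraries lay above all WT libraries at this day. The call was lost in 11 of 16 alternatives, among them without WT p6 replicate 1 (0.47, adjusted p = 0.18). Kdelr3 (1.2 ± 0.32, adjusted p = 0.078), Copz2 (0.63, adjusted p = 0.080), Kdelr2 (0.54, adjusted p = 0.099) and Sec24d (0.53, adjusted p = 0.13) had higher values in ΔSE and were not called. The members' median at p6 was 0.10, against 0.01 over all genes. The p6 libraries also differed in their cell type markers. The summed fibroblast markers were 11758 to 14638 CPM in ΔSE and 1242 to 10898 CPM in WT, with Dpt called higher in ΔSE (1.35 ± 0.27, adjusted p = 0.034) as 1 of 8. The luminal markers were 651 to 1242 CPM in ΔSE and 1087 to 1347 CPM in WT, and the milk protein genes 46.6 to 196 CPM and 175 to 4261 CPM. Of the 8 milk protein genes, 4 were called lower in ΔSE (Csn3, Csn1s2a, Csn2 and Csn1s1). WT p6 replicate 2 had 175 CPM of them, against 4261 and 4139 CPM in replicates 1 and 3. Without this library 5 members were called higher and 1 lower, with 961 and 806 of all 17732 genes. The part of these differences in the values at p6 was not tested.

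**Figure D4:**
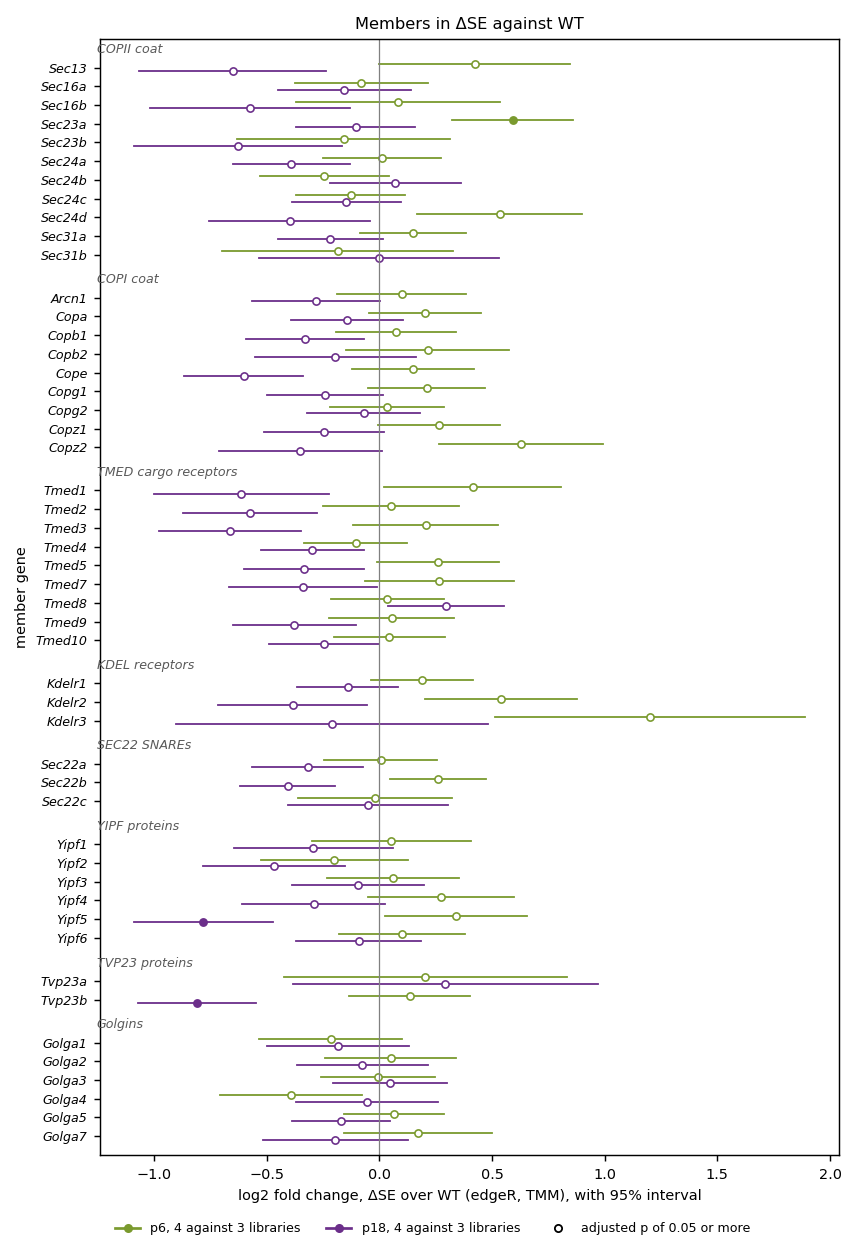
Log2 fold change of ΔSE over WT (x axis, edgeR with TMM scaling, 95% interval as bars) of 49 members at p6 (green) and at p18 (purple), 4 against 3 libraries each; filled points have an adjusted p under 0.05. At p18 most points lie left of 0, with Tvp23b and Yipf5 called, and at p6 Sec23a is the called member, to the right.

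The change from p6 to p18 was set against genotype by the interaction term of the same model. Yipf5 and Tvp23b changed less in ΔSE than in WT, by -1.12 ± 0.21 (95% interval -1.57 to -0.68) and -0.94 ± 0.18 (-1.32 to -0.57), both at an adjusted p of 0.046, with 0.0616% of all genes called in this direction. Both calls were lost in 18 of 22 alternatives, and the values stayed between -1.31 and -0.96 for Yipf5 and between -1.16 and -0.82 for Tvp23b. Both were lost when any of the 14 libraries other than WT p6 replicate 2 or WT p18 replicate 3 was left out, and without WT p6 replicate 2 the members called numbered 12. The log2 fold change was larger in WT than in ΔSE for 44 of the 51 members, a share that was not counted over all genes. In the interaction 24 members were lower at an unadjusted p under 0.05, against 10.4% of all genes, with 0 higher. The median of the interaction was -0.40 over the members and -0.06 over all genes. Sec22b (-0.67, adjusted p = 0.064), Cope (-0.75, adjusted p = 0.079) and Kdelr2 (-0.92, adjusted p = 0.081) came next and were not called. So a member called in WT and not in ΔSE, other than Yipf5, was not shown to differ between them.

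Other genes of the route, taken from lists by known function, also gave more calls upward than downward in WT, where 17.2% of all genes were called higher. The ER-Golgi SNAREs had 10 of 13 genes called higher in WT and 7 in ΔSE, with none lower (medians 0.74 and 0.35). Bet1, a vesicle SNARE, had 1.70 ± 0.16 in WT (adjusted p = 2.4e-06) and 0.66 in ΔSE, Scfd1, which binds syntaxin 5, 1.16 and 0.62, Stx5a, that syntaxin, 0.82 and 0.55, and Stx18 0.88 and 0.39. Of the ARF and RAB switches 10 of 13 were called higher in WT and 6 in ΔSE (medians 0.66 and 0.31). Rab18, a RAB protein of the ER and of lipid droplets, had 2.85 ± 0.24 in WT (adjusted p = 9.4e-07) and 1.48 ± 0.19 in ΔSE, and was the 1 listed traffic gene called lower in ΔSE than in WT at p18 (-1.37 ± 0.20, adjusted p = 0.010). Arfgap3, which switches off ARF1 on COPI vesicles, had 2.08 ± 0.17 and 1.43, Arf4 1.02 and 0.13, and Arf1 0.94 and 0.67.

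Of the cargo receptors outside the TMED and KDEL families, 8 of 12 were called higher and 1 lower in WT, and 4 higher and 3 lower in ΔSE (medians 0.55 and 0.18). Those lower were Lman2l in both (-0.71 and -0.74) and Bcap29 (-0.56) and Ergic1 (-0.52) in ΔSE. Surf4, a receptor for soluble cargo, had 1.72 ± 0.16 in WT (adjusted p = 3.0e-06) and 1.25 in ΔSE, Mcfd2 1.5 and 0.89, its partner Lman1 1.41 and 0.63, and Ergic2 1.04 and 0.46. The COPII regulators had 7 of 13 called higher in WT and 4 in ΔSE (medians 0.48 and 0.27), with Sar1b, the GTPase that starts the coat, at 1.22 and 0.31, Tfg at 1.06 and 0.48, Mia3 at 0.83 and 0.79 and Sar1a at 0.64 and 0.08. Golgi tethers had 9 of 16 called higher in WT and 7 in ΔSE (medians 0.46 and 0.30), with Gorasp2 at 1.23 and 0.88, Cog6 at 1.08 and 0.57, Blzf1 at 0.81 and 0.54 and Uso1 at 0.67 and 0.30. Transcription factors of the secretory pathway had 6 of 9 called higher in WT and 5 in ΔSE (medians 1.00 and 0.42). Bhlha15, a factor of secretory cells, had 3.78 ± 0.45 in WT (adjusted p = 2.0e-05) and 4.23 ± 0.43 in ΔSE, Creb3l1 1.41 and 0.42, Atf4 1.03 and 0.68 and Creb3 1.00 and 0.48. Xbp1, named here after its value was seen because it binds the UPRE, had 1.5 ± 0.28 (adjusted p = 0.00083) and 2.23 ± 0.25. Scaled by library totals, an alternative added after these values were seen, each of the 6 lists had 0 to 4 genes called higher in WT, with medians of 0.08 to 0.63, and 0 to 2 called higher and 3 to 5 lower in ΔSE, with medians of -0.41 to -0.18.

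Cell type markers moved along with the day of pregnancy. In ΔSE, 9 of 10 luminal epithelial and 7 of 8 milk protein genes were called higher at p18, while 7 of 8 fibroblast, 10 of 10 muscle, 7 of 10 adipocyte and 4 of 8 endothelial markers were called lower. In WT the counts were 2 of 10 and 8 of 8 higher, and 0 of 8, 0 of 10, 3 of 10 and 1 of 8 lower. The summed luminal markers were 1087 to 1347 CPM in WT at p6, 1267 to 1947 CPM in WT at p18, 651 to 1242 CPM in ΔSE at p6 and 1926 to 2060 CPM in ΔSE at p18. Of 8 myoepithelial markers, 4 were called higher and 1 lower in WT and 3 higher and 2 lower in ΔSE. Their sums were higher at p18 without overlap, going from 537 to 1122 CPM at p6 to 1563 to 1828 CPM at p18 in WT and from 772 to 1165 CPM to 1567 to 1681 CPM in ΔSE. The part of a changing cell composition in the values of the members was not tested.

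The lines delCsn1s2b-E and delCsn3-PE were set against WT at p18 in a separate model of 8 libraries and 17125 genes. They are taken as another set without WT libraries of its own, which is inferred from their read totals, Rn45s share and count files. The deletion, the stage and the set cannot be told apart, and the values are given as differences between these libraries. Both lines share the WT p18 libraries with the comparison of ΔSE above and with each other. In delCsn1s2b-E, 18 of 50 members were called higher and 2 lower, with 17.2% of all genes higher and 15% lower. In delCsn3-PE, 14 were called higher and 2 lower, with 13.8% and 11.5% of all genes. The medians were 0.40 and 0.35, against -0.00 over all genes in both. Scaled by library totals, 38 and 33 were higher and 0 lower, while the median of all genes moved to 0.40 and 0.42. The number in delCsn3-PE rested on single libraries, with 2 called higher without its replicate 1, 19 without its replicate 2 and 7 without WT p18 replicate 3. The number in delCsn1s2b-E was 11 without its replicate 2. The members' median in delCsn3-PE was -0.01 without its replicate 1, with 24 of 50 members above 0, and 0.55 without its replicate 2. It was 0.17 with muscle content as a covariate and 0.06 with 1 factor of unwanted variation removed. In delCsn1s2b-E the median was 0.24 without its replicate 2.

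Cell type markers differed between these lines and WT as well. In delCsn1s2b-E, 5 of 8 macrophage, 3 of 8 fibroblast, 3 of 8 endothelial and 3 of 10 luminal markers and 1 of 8 myoepithelial markers were called lower and 1 luminal marker higher. In delCsn3-PE, 3 of 8 fibroblast, 4 of 8 endothelial and 1 of 10 luminal markers were called lower and 2 luminal markers higher. The summed fibroblast markers were 3019 to 4125 CPM in delCsn1s2b-E, 2564 to 3507 CPM in delCsn3-PE and 5456 to 7179 CPM in WT. The muscle markers were 20.7 to 734 CPM, 3.48 to 43.3 CPM and 4.48 to 1659 CPM in the same order, and the milk protein genes 180005 to 300941 CPM, 150965 to 298197 CPM and 89311 to 119278 CPM. The part of these cell types in the values of the members was not tested.

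In both lines 14 members were called higher, of which 11 were TMED, COPI or YIPF genes. The share of all genes called higher in both lines was not counted. Tmed5 was at 110.3, 97.1 and 90.1 CPM in WT, at 181, 244 and 163 CPM in delCsn1s2b-E and at 249.7 and 149 CPM in delCsn3-PE, apart from WT in both (0.98 ± 0.21, adjusted p = 0.0057, and 1.01 ± 0.23, adjusted p = 0.011). Yipf4 was at 40.1, 50.5 and 49.8 CPM in WT, 87.2, 94.7 and 78.6 CPM in delCsn1s2b-E and 95.5 and 84.0 CPM in delCsn3-PE (0.89 ± 0.13, adjusted p = 0.0012, and 0.94 ± 0.14, adjusted p = 0.0025). Copg2 was at 45.5, 60.9 and 54.7 CPM in WT, 97.6, 89.8 and 88.7 CPM in delCsn1s2b-E and 87.8 and 93.6 CPM in delCsn3-PE (0.78 ± 0.13, adjusted p = 0.0018, and 0.76 ± 0.14, adjusted p = 0.0052). All of these lay above every WT library. Copg2 shares 912 bases of exon with Mest, and Tmed5 395 with Mtf2, both on the opposite strand. Tmed7 and Yipf6 had 0.98 each in delCsn1s2b-E (adjusted p = 0.0047 for both) and 0.91 and 0.92 in delCsn3-PE (adjusted p = 0.014 for both). Golga7 had 0.81 and 0.86 (adjusted p = 0.0038 and 0.0068), and Sec23a 0.58 and 0.55 (adjusted p = 0.0050 and 0.014). Tmed7 shares 838 bases of exon with Ticam2 on the same strand.

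Copb1, Copb2, Copz1, Sec22a, Tmed2, Tmed10 and Yipf1 were also called higher in both lines, and Arcn1, Copa, Sec22b and Tvp23b in delCsn1s2b-E. Tmed1 was called lower in both, at 12.2, 12.4 and 14.8 CPM in WT, 6.38, 7.34 and 7.80 CPM in delCsn1s2b-E and 8.02 and 8.28 CPM in delCsn3-PE (-0.87 ± 0.15, adjusted p = 0.0021, and -0.69 ± 0.17, adjusted p = 0.015). Sec31b was called lower in delCsn1s2b-E (-0.75 ± 0.23, adjusted p = 0.032) and had -0.73 in delCsn3-PE (adjusted p = 0.063), while Sec22c was called lower in delCsn3-PE (-0.58 ± 0.17, adjusted p = 0.033) and had -0.25 in the other. Cope, Sec13 and Tmed3 were called in neither line. Against each other the lines, which belong to the same set, gave 0 called members in edgeR and in DESeq2, with 0.181% of all genes called in either direction, and 3 members had an unadjusted p under 0.05. Leaving out Yipf7, the log2 differences between them lay between -0.23 and 0.60, the highest being that of Sec24a (0.60, 95% interval 0.11 to 1.09, adjusted p = 0.81).

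**Figure D5:**
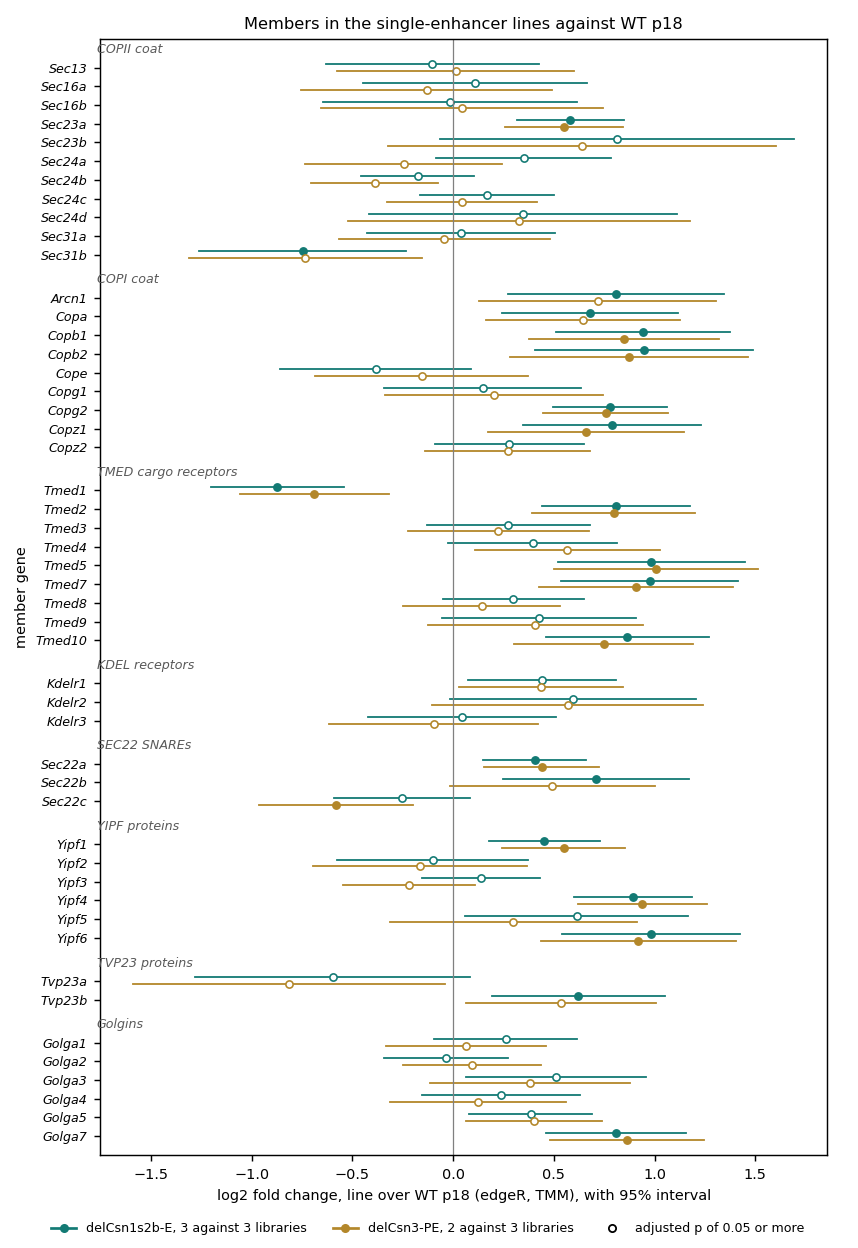
Log2 fold change over WT p18 (x axis, edgeR with TMM scaling, 95% interval as bars) of 49 members in delCsn1s2b-E (teal, 3 libraries) and delCsn3-PE (ochre, 2 libraries), against the same 3 WT libraries; filled points have an adjusted p under 0.05. The TMED, COPI and YIPF genes that were called lie to the right in both lines and Tmed1 to the left, where scaling by library totals left 0 members called lower. The lines are taken as another set than WT.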

How the data were processed

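Total RNA of mammary tissue was depleted of ribosomal RNA and sequenced from stranded paired-end libraries, 19 in all. The deposited values are counts per gene, which the authors made with Trimmomatic, STAR (mm10) and HTSeq and did not normalize. The strand setting and annotation used for counting are not given in the sources used here. In the files of delCsn1s2b-E and delCsn3-PE only, summary entries that name no gene stayed out of library sizes (no feature 13.2 to 20.9%, ambiguous 0.672 to 0.821%, not unique 8.57 to 9.62%). Replicates are described as independent biological replicates, and no pair of libraries agreed within sampling noise.

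Counts were tested with edgeR (version 4.0.16, R version 4.3.3, TMM, glmQLFit and glmQLFTest) on genes whose reads summed to 10 or more, in a model of 14 libraries in 4 groups (17844 genes) and in a model of 8 libraries in 3 groups (17125 genes). Of the members, 51 and 50 were tested. Standard errors follow from the F statistic. Ratios of paralogs used counts plus 0.5 and an exact permutation test within genotypes, written out in Python (version 3.11.15) with numpy (version 2.4.6), with Benjamini-Hochberg adjustment over 11 pairs. Levels per kilobase used the joined length of all exons of a gene in the GENCODE annotation, not the length of the transcript in use. Promoters came from the RefSeq table for GRCm38.p6, in which 41 of 51 members were matched by symbol.

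The members and lists were chosen with earlier results of these data known. Values are given for members called at p18 against p6 up to the 30 smallest adjusted p, for members called elsewhere up to 10, for the paralog pairs, and for up to 4 called genes per list. Other genes named were chosen after their values were seen. Alternatives were DESeq2 (version 1.42.0), other scalings and filters, only the 2 groups compared, a replicate block, 1 factor of unwanted variation estimated without the 5000 genes of smallest p, muscle content as a covariate, and each library left out. Scaling by totals without Rn45s and milk protein genes, and the lists scaled by library totals, were added after seeing the data. The fits were tested on simulated data. The limit set from counts for Yipf7 covers counting error only. The intervals of log2 fold changes rest on the standard errors from edgeR's quasi-likelihood fit, which include the spread between replicates.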

Additional observations from a re-analysis of the deposited data

Results flagged for a closer look

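In groups of 4 libraries, 5 members had 1 library far from the other 3. These were Copa in ΔSE p6 replicate 3 (179 CPM, the lowest), Kdelr3 in ΔSE p18 replicate 3 (6.75 CPM, the highest), Yipf7 in ΔSE p6 replicate 2 (2.56 CPM, the highest), Tmed1 in ΔSE p18 replicate 1 (7.55 CPM, the lowest) and Sec31b in ΔSE p6 replicate 2 (9.52 CPM, the highest). They are 5 of 89 groups examined, and chance flags about 1 in 20, here 4.45. The interaction term in edgeR called Tvp23b (-0.94) and Yipf5 (-1.12, log2), whose change from p6 to p18 was smaller in ΔSE. Both calls were lost in 18 of 22 alternatives.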

How the results depend on the processing

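The counts of called members depended on the scaling. In WT the 37 called higher at p18 became 18 under library totals and 0 with 1 factor of unwanted variation, and the 1 called lower became 2 with DESeq2, 5 under library totals, 4 under totals without Rn45s and milk protein genes, 2 with only the groups compared and 0 with the factor. In ΔSE the 29 higher became 1 under library totals and 7 under totals without Rn45s and milk protein genes. They became 0 with the factor and 20 with muscle content as a covariate. The 4 lower became 11, 7, 0 and 1 in the same order. The causes were not tested. In ΔSE against WT at p18 the 2 lower became 6 with DESeq2, 0 under library totals, 1 under totals without Rn45s and milk protein genes, 7 with only these groups, 3 with the factor and 1 with muscle content. At p6 the 1 higher became 4 with DESeq2 and 0 under both totals, with only these groups or with the factor. The 2 interactions became 11 with DESeq2 and 0 under both totals, with edgeR's filter on expression, the factor or muscle content. For delCsn1s2b-E, the 18 higher became 38 under library totals and 11 with the factor, and the 2 lower became 0 under library totals and 1 under the other totals or with the factor. For delCsn3-PE, the 14 higher became 33 under library totals, 3 with the factor and 6 with muscle content, and the 2 lower became 4 with DESeq2, 0 under library totals or with the factor, and 1 under the other totals or with muscle content. The 5 paralog pairs stayed 5 under the other alternatives tried but became 0 in ΔSE alone, where the smallest exact p is 0.0286 before adjustment over 11 pairs, and WT alone cannot pass, so that neither says anything about stability. The factor of unwanted variation ran from 0.13 to 0.412 at p6 and from -0.328 to -0.187 at p18 and cannot be told apart from the day.

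Leaving out 1 library gave 34 to 39 higher and 1 to 1 lower in WT, 24 to 29 and 2 to 5 in ΔSE, 0 to 2 lower in ΔSE at p18, 0 to 5 higher and 0 to 1 lower at p6 (5 and 1 without WT p6 replicate 2), 0 to 12 interactions, 11 to 19 and 1 to 2 in delCsn1s2b-E, 2 to 19 and 0 to 2 in delCsn3-PE, and 5 to 6 paralog pairs. Same-numbered libraries correlated between -0.77 and 0.48, so that they share only a number. With the replicate number as a block the counts were 39 and 1 in WT, 27 and 4 in ΔSE, 1 lower at p18, 0 at p6, 0 interactions, 14 and 2 in delCsn1s2b-E, 4 and 0 in delCsn3-PE, and 5 pairs.

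The members below, called at p18 against p6 in ΔSE, changed sign and lost the call in the settings given. Under totals without Rn45s and milk protein genes, 0 of them changed sign. Under library totals these were Copz1 (-0.0044), Sec24d (-0.18), Tmed9 (-0.040), Copb1 (-0.044), Copa (-0.051), Kdelr1 (-0.15), Tmed7 (-0.078), Golga5 (-0.097), Sec22a (-0.11), Sec31a (-0.28), Tmed10 (-0.19), Golga7 (-0.041), Sec24c (-0.084), Copg2 (-0.12), Golga1 (-0.13), Golga3 (-0.28) and Sec16a (-0.26). With the factor they were Cope (-0.058), Sec24d (-0.046), Tmed7 (-0.013), Copb2 (-0.061), Tmed8 (0.21), Kdelr3 (0.54), Copz2 (0.089), Yipf7 (3.94) and Sec16a (-0.087), and with muscle content Yipf7 (0.84).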
